A study of Mus musculus with 40 samples.

Results

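The BET proteins and the regulators of the elongation kinase P-TEFb were followed across B16F10 melanoma cells and tumours treated with OTX015 or guadecitabine. The genes were Brd2, Brd3, Brdt, Hexim1, Cdk9, Ccnt1, Ccnt2 and Larp7, and every probe set that the array annotation assigns to 1 of these symbols alone was taken. This gave 14 probe sets of 7 of the 8 genes, out of 45141 probe sets on the array. Brd3 had 4, Brdt, Hexim1, Cdk9 and Ccnt1 had 2 each, and Brd2 and Ccnt2 had 1 each. Larp7 has only a probe set shared with a further gene and is not analysed here.

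BET proteins carry paired bromodomains that bind acetylated lysines of histones, and they help bring P-TEFb to promoters and enhancers. P-TEFb is the kinase Cdk9 with cyclin T1 or T2, and it releases paused RNA polymerase II into productive elongation. Most P-TEFb can be held inactive in a complex of the 7SK RNA with Larp7 and Hexim1, the subunit that inhibits the kinase. Release of P-TEFb from 7SK and a rise of HEXIM1 mRNA are known responses of human cells to BET inhibitors. Brdt is the BET protein of male germ cells.

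B16F10 is a mouse cutaneous melanoma line. The arrays comprised 4 cultures with OTX015, a BET inhibitor, and 4 untreated cultures, 10 tumours of mice given OTX015 by mouth and 11 untreated tumours of that experiment, and 6 tumours of mice given guadecitabine, an inhibitor of DNA methylation, by intraperitoneal injection and 5 untreated tumours of that experiment. All tumours grew from B16F10 cells placed under the skin of C57black6J mice aged 8 weeks. Dose, duration and the sex of the mice are not labelled, nor is it said whether replicates were separate cultures or animals, so p-values may measure technical spread only. The labels call the tumour samples cutaneous melanocytes of tumours and mention no sorting.

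All 7 melanocyte markers lay above the background level in every group, with an average of 11.2 to 11.7 on the log2 scale in each array. This background was the 95th percentile of 81 probe sets for olfactory and vomeronasal receptors, which detect odours and pheromones, at 4.30 to 4.70 by group. In cultures 5 of the 6 leukocyte and macrophage markers lay at or below it, whereas in each tumour group 5 of 6 lay above it. In bulk tumours, fewer cells of a type and less RNA per cell cannot be told apart. The mean over all probe sets was 4.34 to 4.38 in the OTX015-treated tumours and 4.54 to 4.64 on the other 30 arrays. Comparisons with these tumours were therefore made after quantile normalization of the arrays compared, which gives them 1 distribution of values, while the other 2 drug comparisons used the values as deposited.

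The promoters of Hexim1 and Brd2 are shown because these were the 2 members with the largest changes, those in OTX015-treated cultures. The sequences are the 250 bases before and 50 after a start site in RefSeq's mouse assembly GRCm38.p6, 5′ to 3′ on the strand of the gene, and capitals mark the motifs that were searched for and found. The Hexim1 window (chr11:103116075-103116374, plus strand) holds a CCAAT box, read on the opposite strand, and a GC box. RefSeq gives 3 windows for Brd2, and the one farthest upstream is shown (chr17:34122558-34122857, minus strand), which holds none of the motifs searched. Of the other 2 Brd2 windows, that at chr17:34121698-34121997 holds a GC box alone, and that at chr17:34119851-34120150 holds a GC box on the opposite strand and TCATGTG, the M-box form bound by the melanocyte factor Mitf.
Hexim1: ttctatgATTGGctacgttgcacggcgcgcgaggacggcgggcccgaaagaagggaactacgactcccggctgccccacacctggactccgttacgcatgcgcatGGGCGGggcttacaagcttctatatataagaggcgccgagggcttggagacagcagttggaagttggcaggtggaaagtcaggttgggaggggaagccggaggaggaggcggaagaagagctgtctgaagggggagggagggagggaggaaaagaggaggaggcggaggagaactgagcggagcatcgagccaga
Brd2: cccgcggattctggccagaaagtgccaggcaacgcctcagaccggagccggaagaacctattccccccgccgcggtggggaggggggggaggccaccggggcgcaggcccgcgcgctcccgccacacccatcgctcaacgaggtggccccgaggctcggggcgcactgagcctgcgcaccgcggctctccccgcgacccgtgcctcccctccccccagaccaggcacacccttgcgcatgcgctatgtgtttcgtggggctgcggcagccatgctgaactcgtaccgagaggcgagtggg
Both strands were searched for the TATA box TATAAA, the CCAAT box, the GC box GGGCGG, the E-box CACGTG, the M-box TCATGTG, the cyclic AMP response element TGACGTCA and the AP-1 site TGANTCA, and no matches overlapped in the Hexim1 and Brd2 windows. Of 32851 mouse promoters, 37.4% held CCAAT, 35.7% held GGGCGG and 3.77% held TCATGTG. The Hexim1 window had 21 CpG dinucleotides and the Brd2 window shown 32, against a median of 7 over all promoters. None of the Hexim1 and Brd2 windows held TATAAA. These matches describe the letters only and show no binding.

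Of the 14 probe sets, 9 lay above background in all 6 groups. They were the single probe sets of Brd2 and Ccnt2, 3 of Brd3, both of Ccnt1 and 1 each of Hexim1 and Cdk9. Both Brdt probe sets and the second Cdk9 probe set (1457240_PM_at) lay above it in no group. The fourth Brd3 probe set (1423199_PM_at) lay above it in 1 group and the second Hexim1 probe set (1419359_PM_at) in 2. Probe sets differ in how well they hybridise, so no level of 1 gene is set against that of another.

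In cultured cells OTX015 raised the mRNA of Hexim1 and Brd2 several fold and that of Brd3 and Ccnt1 by less. Of the 14 probe sets, 9 were higher and 0 lower at an adjusted p under 0.05 in limma with Benjamini-Hochberg adjustment over all 45037 probe sets tested. Over all of these, 29.2% were called, 13.8% as higher. The 9 belonged to 4 genes. The median log2 difference was 0.42 over the 14 and 0.01 over all probe sets.

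**Figure D1:**
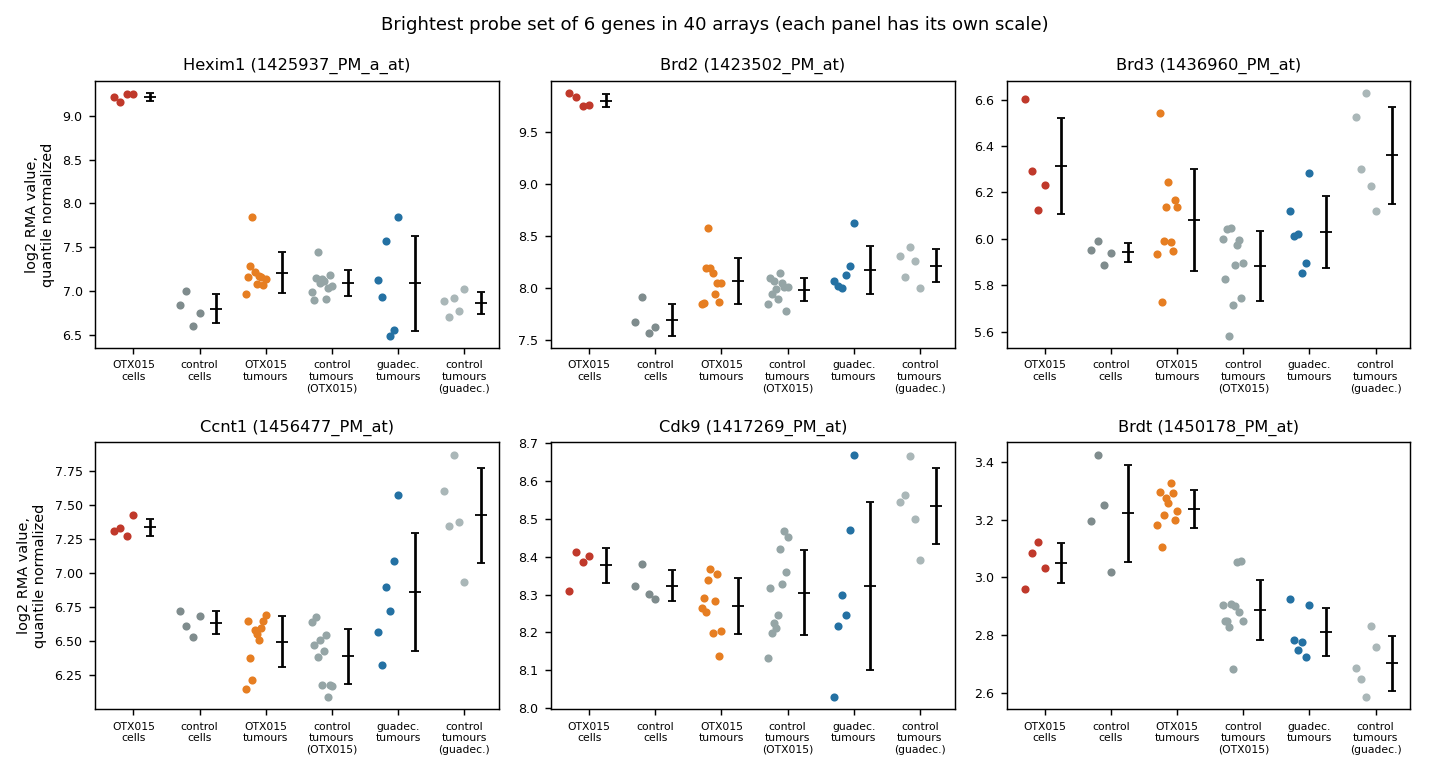
Quantile normalized log2 RMA values (y axis) of the brightest probe set of 6 genes in the 6 groups (x axis), 1 point per array; the mark and bar beside the points are the mean and SD, and each panel has its own scale. In the Hexim1 and Brd2 panels the 4 OTX015-treated cultures stand above all 36 other arrays, and the Brdt panel lies wholly below the background level.

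Hexim1, which inhibits P-TEFb within the 7SK complex, changed most. Its brighter probe set (1425937_PM_a_at; gene at chr11:103116325-103119725, plus strand) read 9.39, 9.35, 9.45 and 9.44 with OTX015, against 7.22, 7.40, 6.91 and 7.10 in untreated cultures. Its second probe set read 6.86, 7.04, 7.22 and 7.40 with OTX015, against 4.16, 4.34, 4.39 and 4.64 in untreated cultures, whose mean of 4.38 lay below the background level of 4.44 on the deposited values. The treated and untreated cultures did not overlap on either probe set. The log2 difference was 2.25 ± 0.10 (SE, n = 4 each; limma adjusted p = 4.86e-08), a 4.75-fold rise, on the brighter probe set. On the second, whose untreated level is only a bound, treated cultures were at least 6.45-fold higher than that background (limma adjusted p = 8.24e-08).

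Brd2, a broadly expressed BET protein, is encoded on chromosome 17 (34112019 to 34122814). Its probe set (1423502_PM_at) read 9.99, 9.99, 9.93 and 9.93 with OTX015, against 7.99, 8.24, 7.89 and 7.94 in untreated cultures. All 4 treated cultures lay above all 4 untreated ones, by a log2 difference of 1.95 ± 0.08 (SE, n = 4 each; limma adjusted p = 3.88e-08) or 3.85-fold. This stood at the 99.7th percentile of the differences over all probe sets, and the brighter Hexim1 probe set at the 99.8th.

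Brd3, the other BET protein found in most tissues (chr2:27445576-27507657), had 4 probe sets that were all called higher but by unequal amounts. Probe set 1460328_PM_at read 6.62, 6.09, 6.16 and 6.39 with OTX015, against 5.41, 5.59, 4.86 and 5.27 in untreated cultures, a log2 difference of 1.03 ± 0.16 (SE; limma adjusted p = 0.000453). Probe set 1450902_PM_at read 6.53, 6.19, 6.39 and 6.33 with OTX015, against 5.37, 5.98, 5.00 and 5.73 in untreated cultures, a log2 difference of 0.84 ± 0.18 (SE; limma adjusted p = 0.00415). The treated and untreated cultures did not overlap on these 2 probe sets. The brightest Brd3 probe set (1436960_PM_at) read 6.89, 6.57, 6.42 and 6.56 with OTX015, against 6.30, 6.40, 6.14 and 6.25 in untreated cultures. It differed by 0.34 ± 0.10 (SE; limma adjusted p = 0.0283), and the dim probe set 1423199_PM_at by 0.32 ± 0.11 (SE; limma adjusted p = 0.0464), with groups that overlapped on the dim one and untreated cultures below background there. The calls of both ended in 5 of 8 fits that left out 1 culture and when all 6 groups shared 1 fit. For the brightest these were the fits without untreated replicates 1, 3 or 4 or treated replicates 2 or 4 (limma adjusted p of 0.0507 to 0.0706), and for the dim one those without untreated replicates 1, 3 or 4 or treated replicates 3 or 4 (limma adjusted p of 0.109 to 0.13).

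Among the P-TEFb subunits, cyclin T1 rose and the kinase and cyclin T2 gave no call. Ccnt1 (1456477_PM_at; gene at chr15:98538690-98567736) read 7.61, 7.65, 7.62 and 7.77 with OTX015, against 7.11, 7.04, 6.83 and 7.03 in untreated cultures. The groups were apart, with a log2 difference of 0.66 ± 0.08 (SE; limma adjusted p = 5.03e-05). The second Ccnt1 probe set (1419313_PM_at) differed by 0.50 ± 0.11 (SE; limma adjusted p = 0.00467), also without overlap. In all, 8 of the 14 probe sets lay wholly higher in treated cultures, where 14.4% of all probe sets did.

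Cdk9 (1417269_PM_at; gene at chr2:32705782-32712784) read 8.53, 8.65, 8.66 and 8.67 with OTX015, against 8.60, 8.66, 8.59 and 8.54 in untreated cultures. The groups overlapped fully, and the 95% interval of the log2 difference ran between -0.11 and 0.17. Ccnt2 (1453399_PM_at; gene at chr1:127774164-127804837) read 6.10, 6.66, 6.17 and 6.26 with OTX015, against 6.26, 6.35, 6.41 and 6.07 in untreated cultures, with an interval between -0.25 and 0.30. Its groups overlapped as well. The second Cdk9 probe set, below background, differed by 0.30 (limma adjusted p = 0.0697) and passed without treated replicate 1 (limma adjusted p = 0.00778). Brdt (gene at chr5:107331116-107387061) lay below background on both probe sets, with log2 differences of -0.16 (limma adjusted p = 0.199) and 0.04 (limma adjusted p = 0.703).

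RNAs that stay in the nucleus also read higher in treated cultures. Normalized over all 40 arrays, Malat1 averaged 7.46 with OTX015 and 5.25 without, Neat1 9.83 and 8.49, and Kcnq1ot1 4.64 and 4.18. Kcnq1ot1 lay below background in untreated cultures and in treated and untreated tumours of the OTX015 experiment. The mean of Malat1, Neat1 and Kcnq1ot1, a set chosen after the data had been seen, was 7.06 to 7.63 with OTX015 and 5.89 to 6.09 without. With this mean as a covariate, which separates the 2 groups completely by itself, 205 probe sets in all and 2 of the 14 were called in limma, both of Hexim1 (adjusted p = 0.0406 and 0.0476). Brd2 differed by 1.98 in that fit (limma adjusted p = 0.0887) and Ccnt1 by 0.82 (limma adjusted p = 0.464). The part of these RNAs and that of OTX015 cannot be told apart in these cultures, so the calls kept or lost in that fit say little.

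**Figure D2:**
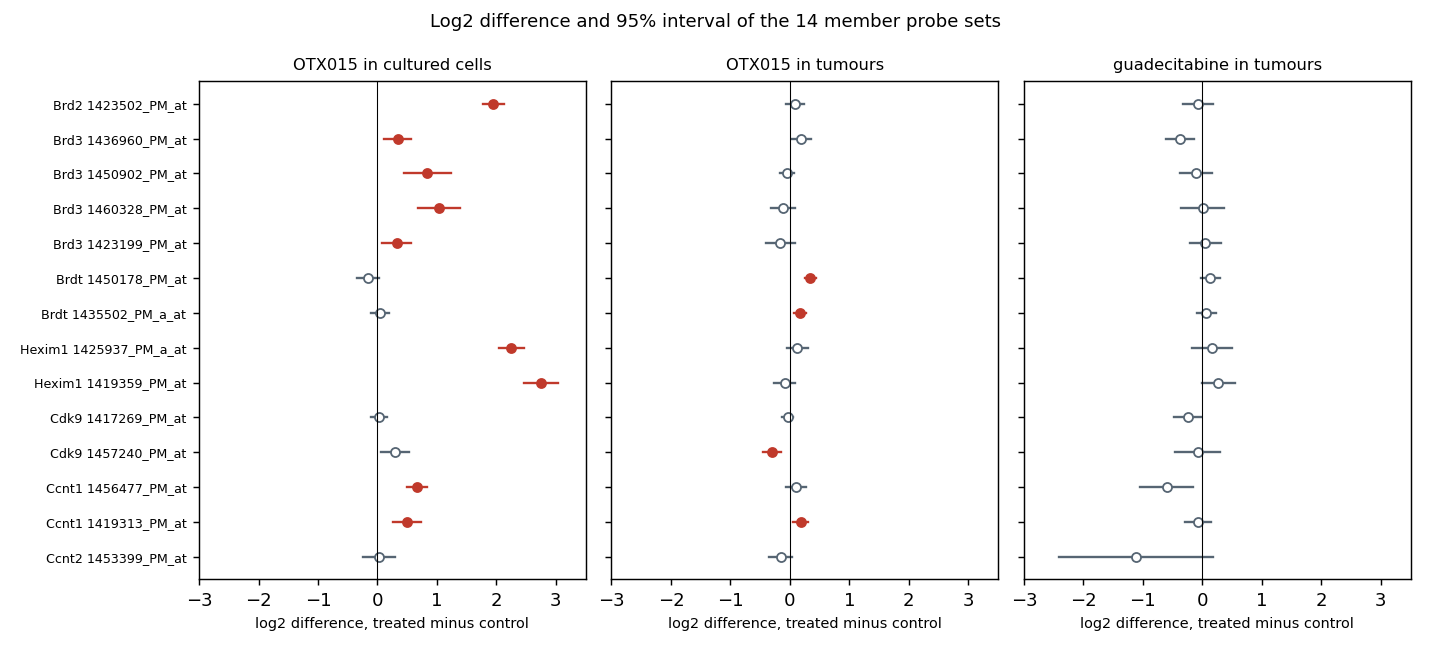
Log2 difference between treated and control arrays (x axis) for the 14 probe sets (y axis) in the 3 drug comparisons; points are limma estimates, lines 95% intervals, and filled red points passed an adjusted p of 0.05. In cultured cells 9 of 14 are filled, all to the right of 0; in OTX015-treated tumours 4 are filled, all within 0.4 of 0; with guadecitabine none is filled.

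In tumours of mice given OTX015, Hexim1 and Brd2 stayed near the level of untreated tumours, and the calls that passed were small. Of the 14 probe sets, 3 were higher and 1 lower in limma after quantile normalization, where 16.7% of all probe sets were called, 8.6% as higher and 8.09% as lower. On the values as deposited, which lay 0.21 lower in treated tumours at the median of all probe sets, 1 was higher and 7 lower, and of all 26784 called probe sets 2.15% were higher, against 51.5% of calls after normalization. The values below are relative to that general shift.

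The brighter Hexim1 probe set lay at 6.81 at the lowest, 7.01 at the median and 7.72 at the highest in OTX015-treated tumours, against 6.75, 6.95 and 7.31 in untreated tumours. The groups overlapped, and the log2 difference of 0.12 ± 0.09 (SE, n = 10 and 11) did not pass (limma adjusted p = 0.375), with a 95% interval between -0.06 and 0.30. Its second probe set differed by -0.09 (limma adjusted p = 0.524). Brd2 lay at 7.72, 7.92 and 8.47 (lowest, median, highest) in treated tumours, against 7.65, 7.89 and 8.02 in untreated tumours. It too overlapped, with a log2 difference of 0.09 ± 0.08 (SE; limma adjusted p = 0.481) and an interval between -0.07 and 0.24. The upper bounds for both genes lie far under the differences measured in culture. The directions of the brighter Hexim1 probe set and of Brd2 turned on the deposited values, to -0.11 and -0.14.

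Brd3 (1436960_PM_at) lay at 5.59, 5.92 and 6.39 (lowest, median, highest) in treated tumours, against 5.45, 5.75 and 5.90 in untreated tumours. The difference of 0.19 ± 0.08 (SE) did not pass (limma adjusted p = 0.0916), though it did without treated replicate 3 (limma adjusted p = 0.0356), and its sign turned on the deposited values (-0.03). The other 3 Brd3 probe sets differed by -0.04 to -0.16, and none passed.

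Cdk9 (1417269_PM_at) lay at 8.02, 8.16 and 8.26 in treated tumours, against 8.02, 8.20 and 8.36 in untreated tumours, which overlapped (log2 difference -0.04; limma adjusted p = 0.655). Ccnt2 lay at 4.64, 5.12 and 5.45 in treated tumours, against 4.89, 5.26 and 5.64 in untreated tumours (log2 difference -0.16; limma adjusted p = 0.292). Of Ccnt1, the brighter probe set differed by 0.11 (limma adjusted p = 0.424) and the second by 0.18 ± 0.06 (SE; limma adjusted p = 0.0442). The call of this second probe set ended in 11 of 21 fits that left out 1 tumour, those without untreated replicates 3, 4, 6, 7 or 8 or treated replicates 3, 4, 5, 7, 9 or 10 (limma adjusted p of 0.0535 to 0.0839), and its sign turned on the deposited values (-0.08).

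The clearest difference in tumours was that of Brdt on signals below background. Probe set 1450178_PM_at lay at 3.09, 3.23 and 3.31 (lowest, median, highest) in treated tumours, against 2.67, 2.87 and 3.04 in untreated tumours. After quantile normalization every treated tumour lay above every untreated one, as for 0.877% of all probe sets. The log2 difference was 0.34 ± 0.04 (SE, limma adjusted p = 6.41e-06). On the deposited values the groups overlapped, at 3.03 to 3.18 in treated and 2.75 to 3.16 in untreated tumours. The second Brdt probe set differed by 0.17 ± 0.05 (SE; limma adjusted p = 0.0129), a sign that turned on the deposited values (-0.0023). Of 6 male germ cell markers measured, 0 lay above background in any group. Of the 81 olfactory and vomeronasal receptor probe sets, 11 were also called in this comparison, 6 higher and 5 lower. The remaining call, on the Cdk9 probe set below background (1457240_PM_at), was a log2 difference of -0.29 ± 0.07 (SE; limma adjusted p = 0.00796).

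Leukocyte and macrophage markers differed in the same tumours. Of the 6 markers, 0 were higher and 4 lower after OTX015, with a median log2 difference of -1.01. Their mean was 4.25 to 6.02 over treated tumours and 5.52 to 7.34 over untreated ones. Of this list, Itgam lay at or below background in both groups. The part of these cells in the values above was not tested.

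The effect of OTX015 in tumours was then set against its effect in cultures by testing the difference itself. Of the 14 probe sets, 7 were lower and 1 higher in limma, where 26% of all probe sets were called, 13.4% as higher and 12.6% as lower. For Hexim1 the tumour effect was lower by 2.31 ± 0.15 (SE; limma adjusted p = 8.92e-13) on the brighter probe set and by 2.58 ± 0.16 (SE; limma adjusted p = 8.03e-13) on the second, where of the 4 groups in this test only the treated cultures lay above background. For Brd2 it was lower by 2.02 ± 0.13 (SE; limma adjusted p = 1.03e-12). The Brd3 probe sets 1450902_PM_at and 1460328_PM_at were lower by 0.85 (limma adjusted p = 2.39e-05) and by 1.09 (limma adjusted p = 5.7e-05), and Ccnt1 (1456477_PM_at) was lower by 0.60 (limma adjusted p = 0.00204). The brightest Brd3 probe set (-0.17; limma adjusted p = 0.433), Cdk9 (-0.09; limma adjusted p = 0.452) and Ccnt2 (-0.25; limma adjusted p = 0.364) did not pass. Exposure to the drug in cultures and in tumours cannot be set side by side, since dose and time are not labelled for either.

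With guadecitabine no probe set was called. In limma 0 of 45037 passed (0%), the lowest adjusted p being 0.12, and 3080 had an unadjusted p under 0.05. Among the 14, 0 passed and 3 had an unadjusted p under 0.05. They were Ccnt1, the brightest Brd3 probe set and Cdk9.

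Ccnt1 (1456477_PM_at) lay at 6.48, 6.78 and 7.33 (lowest, median, highest) after guadecitabine, against 7.66, 7.36, 7.85, 7.48 and 6.94 in the untreated tumours. The groups overlapped, and the log2 difference was -0.60 ± 0.20 (SE, n = 6 and 5; limma adjusted p = 0.709). Brd3 (1436960_PM_at) lay at 5.84, 6.09 and 6.18 after guadecitabine, against 6.64, 6.35, 6.70, 6.36 and 6.13 in untreated tumours, a log2 difference of -0.38 ± 0.11 (SE; limma adjusted p = 0.682). Cdk9 (1417269_PM_at) differed by -0.25 (limma adjusted p = 0.719). Hexim1 (1425937_PM_a_at) lay at 6.66, 7.09 and 7.59 after guadecitabine, against 6.99, 6.74, 6.98, 6.89 and 7.04 in untreated tumours, and Brd2 at 7.80, 8.26 and 8.36, against 8.38, 8.12, 8.37, 8.33 and 8.05. Both overlapped, with 95% intervals of the log2 difference between -0.17 and 0.50 for Hexim1 and between -0.33 and 0.18 for Brd2.

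Ccnt2, the alternative cyclin partner of Cdk9, varied most among the tumours of this experiment. It read 7.90, 5.21, 7.05, 7.88, 8.44 and 8.40 after guadecitabine, against 8.84, 9.23, 9.25, 8.59 and 7.07 in untreated tumours. The log2 difference was -1.12 ± 0.59 (SE; limma adjusted p = 0.733), with an interval between -2.40 and 0.17. Over all 40 arrays normalized together, Ccnt2 averaged 8.58 in the untreated tumours of the guadecitabine experiment and 5.38 in those of the OTX015 experiment, a log2 difference of 3.20, and 0.3% of all probe sets were as much higher. Ccnt1 (1456477_PM_at) differed by 1.04 between these untreated groups, which 4.3% of all probe sets matched or passed, and Hexim1 (1425937_PM_a_at) by -0.23. Whether the 2 experiments differ in more than the labels give is not known, and the differences between these untreated groups were not tested.

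The nuclear-retained RNAs went the same way in these tumours. Their mean lay at 5.23, 7.41 and 8.56 (lowest, median, highest) after guadecitabine, at 6.64, 8.22 and 8.37 in the untreated tumours of that experiment, and at 5.11, 5.36 and 6.05 in the untreated tumours of the OTX015 experiment. Guadecitabine replicate 2 was lowest in its group for both this mean and Ccnt2, and untreated replicate 5 was lowest in its group for both. With the mean as a covariate the Ccnt2 difference was -0.30 and the Ccnt1 difference -0.38. These RNAs were chosen after the data had been seen, and their median differed between treated and untreated tumours of this experiment. The smaller differences in that fit therefore say little. In cultures the mean of these RNAs was 7.28 with OTX015 and 5.95 without at the median, while Ccnt2 averaged 6.02 and 5.94. Whether Ccnt2 follows these RNAs was not tested. Of the 20 probe sets most like Ccnt2 over the 40 arrays, 17 have no gene name in the annotation. The closest named genes were Zfp950 (Pearson's r = 0.97), Tubgcp4, Slc38a6, 4632427E13Rik and Tbc1d1, and all points share the differences between experiments.

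**Figure D3:**
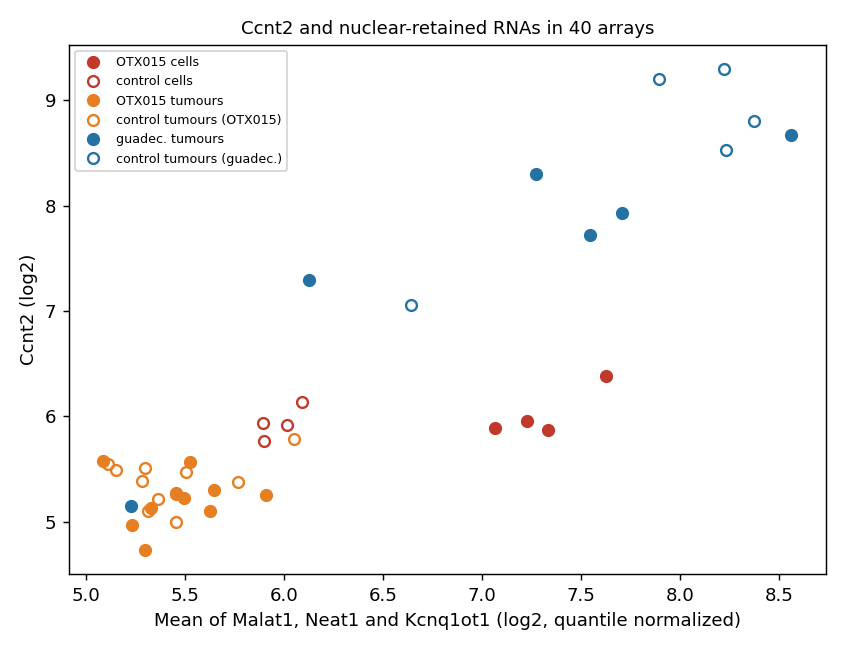
Log2 value of the Ccnt2 probe set (y axis) against the mean log2 value of Malat1, Neat1 and Kcnq1ot1 (x axis) in each of 40 arrays, both quantile normalized; colours are experiments, filled points treated and open points control arrays. Tumours of the guadecitabine experiment spread along both axes, with replicate 2 of the treated tumours at 5.15 for Ccnt2, while tumours of the OTX015 experiment lie together at the lower left. OTX015-treated cultures lie to the right of untreated cultures but overlap them in height.

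The effect of OTX015 minus that of guadecitabine in tumours was called higher for 3 of the 14 probe sets and lower for 0 in limma, where 4.62% of all probe sets were called, 2.41% as higher and 2.2% as lower. They were Brd3 (1436960_PM_at; 0.52 ± 0.13 (SE); adjusted p = 0.0221), Ccnt1 (1456477_PM_at; 0.67 ± 0.20; adjusted p = 0.0485) and Brdt (1450178_PM_at; 0.24 ± 0.07; adjusted p = 0.0494). On the deposited values none of these 3 passed, while 3 others were called lower. Leaving out 1 array of the guadecitabine experiment gave 0 to 3 calls among the 14. The call of Brd3 ended without untreated replicate 1 or 3, and those of Ccnt1 and Brdt in 8 of 11 such fits each.

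Untreated tumours of the OTX015 experiment were set against untreated cultures for the level without drug. In limma 5 of the 14 probe sets were called, 2 higher and 3 lower in tumours, where 36.2% of all probe sets were. Ccnt2 lay at 5.05, 5.45 and 5.85 (lowest, median, highest) in tumours, against 5.98, 6.00, 6.20 and 5.83 in cultures, a log2 difference of -0.56 ± 0.12 (SE; limma adjusted p = 0.00137). With untreated tumours of the guadecitabine experiment in their place it was 2.57. Brd2 was higher by 0.29 (limma adjusted p = 0.00589) and Hexim1 (1425937_PM_a_at) by 0.30 (limma adjusted p = 0.0158), but both signs turned on the deposited values (-0.04 and -0.11) and after centring on the median (-0.13 and -0.20), and Hexim1 did not pass without untreated culture 3 (limma adjusted p = 0.0787) or 4 (limma adjusted p = 0.0502). Cdk9 (1417269_PM_at) differed by -0.02 (limma adjusted p = 0.845). The other 2 calls were probe sets below background, Brdt (-0.34) and Cdk9 (-0.35).

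Genes around P-TEFb and the BET proteins were followed in 5 lists, each gene by its brightest probe set. Over all 17097 genes 37.3% were called in OTX015-treated cultures, 16.2% as higher and 21.1% as lower. Of the 11 measured partners of 7SK and P-TEFb, 2 rose and 6 fell, with a median log2 difference of -0.38 against 0.00 over all genes. The RNA-binding proteins Hnrnpa1 (-1.63), Hnrnpa2b1 (-0.99) and Syncrip (-1.04) fell, and Mepce, the enzyme that caps 7SK RNA, rose by 0.56. Of 17 elongation factors, 6 rose and 2 fell (median 0.20). Rtf1 (1.20) and Ctr9 (0.64), both tied to the Paf1 complex, rose, and Tcea1 (-1.03), which restarts stalled polymerase, fell. Eaf2 rose by 1.05 on a signal below background.

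All 4 measured pausing factors were called. The NELF subunits Nelfcd (-0.69), Nelfb (-0.31) and Nelfe (-0.31) fell, and Supt5, the large subunit of DSIF, rose by 0.61. Of 9 other transcriptional kinases and cyclins, 2 rose and 4 fell (median -0.28). Mnat1 (-0.58) and Ccnh (-0.42), partners of Cdk7, and Ccnc (-0.57), the partner of Cdk8, fell, and Cdk12, which also phosphorylates polymerase II, rose by 0.54. Of 28 other bromodomain genes, 8 rose and 5 fell (median 0.14), among them Brpf3 (1.21), Trim24 (0.89) and Trim28 (0.52) as higher and Brwd1 (-0.92) as lower. These values are limma log2 differences over 4 treated and 4 untreated cultures, and each gene named passed an adjusted p of 0.05.

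In OTX015-treated tumours 10 of the 69 genes measured in these lists were called (14.5%), a share near the 16.7% of all genes. Of the 11 partners 1 rose, the phosphatase Ppm1g (0.27), and of 17 elongation factors 2 rose, Ell (0.22, below background) and Mllt3 (0.26). Supt5 (-0.26) was the 1 pausing factor and Cdk12 (-0.32) the 1 kinase called, both lower. Of the bromodomain genes 2 rose and 3 fell, with Kat2a (0.41) and Phip (-0.35) the clearest by p. With guadecitabine 0 genes of the 5 lists passed in limma.

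**Figure D4:**
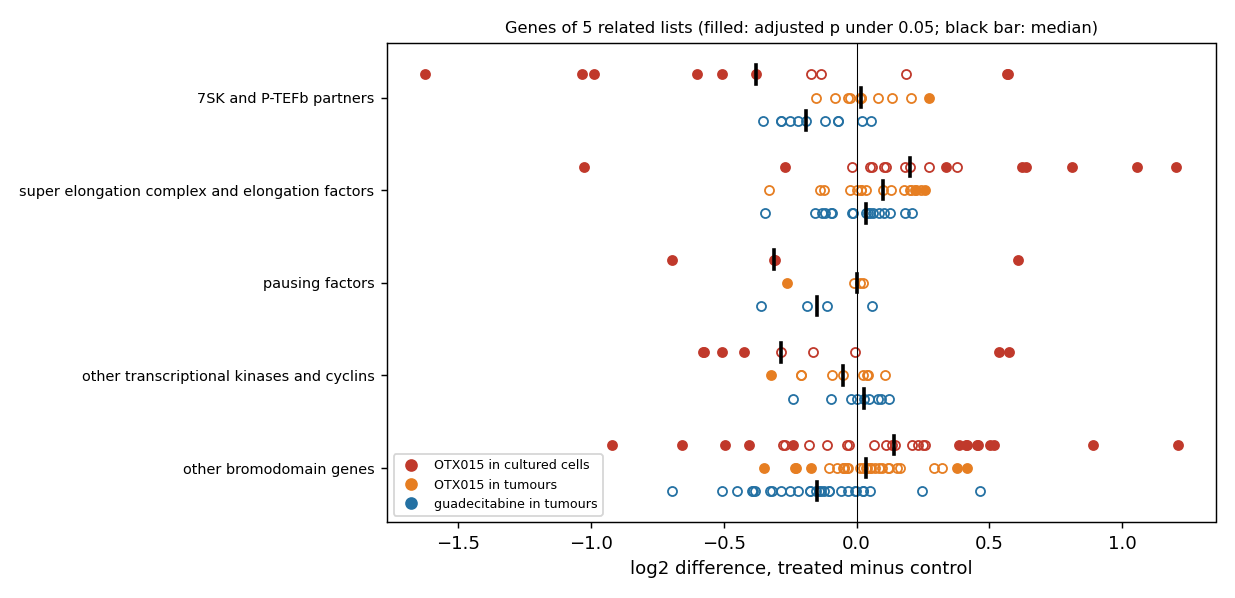
Limma log2 difference, treated minus control (x axis), of each gene in the 5 lists (y axis) for OTX015 in cultured cells, OTX015 in tumours and guadecitabine in tumours; filled points passed an adjusted p of 0.05 and black bars are medians. The culture points reach from -1.63 (Hnrnpa1) to 1.21 (Brpf3), and most filled points are theirs.

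The genes whose brightest probe sets were most like Hexim1 over the 40 arrays were H4c8 (Pearson's r = 0.93), Slc9a3r1 (0.93), Dynll2 (0.92), Strip2 (0.92) and Hsd17b7 (0.92). Those most like Brd2 were H4c8 (0.95), H3c15 (0.94), Polr2a (0.93), Strip2 (0.93) and H3c1 (0.92). All arrays share the step between treated cultures and the rest, and over the 11 untreated tumours of the OTX015 experiment r with Hexim1 was between -0.30 and 0.84 and r with Brd2 between -0.12 and 0.49 for these genes. Within the 10 OTX015-treated tumours Brd2 and Hexim1 correlated with r = 0.88 (permutation p = 0.00334) and Spearman's rho = 0.75 (permutation p = 0.0168). Over the 42 relations computed between members the adjusted p was 0.14 and 0.315, so this did not pass, and without replicates 1 and 4 r was 0.51. In the 11 untreated tumours r was -0.07 (permutation p = 0.827) and rho -0.26 (permutation p = 0.434). These values are quantile normalized, and on the deposited values r was 0.79 in treated and 0.62 in untreated tumours. With the second Hexim1 probe set, r with Brd2 was 0.71 and 0.37 on the normalized values. The difference in r between the groups was not tested.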

How the data were processed

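Labelled RNA (500 ng of total RNA a sample, per the labels' protocols) was hybridised to 1 Affymetrix 3′ expression array per sample. The authors deposited log2 values, summarised by RMA; the submitters' processing notes also name the Transcriptome Analysis Console. The arrays that were normalized as 1 set are not named in the sources used here. All 40 columns entered, and 104 array controls were left out. The number of arrays sets the precision, since arrays have no read depth.

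GEO's annotation of the array gave gene names, and RefSeq (GRCm38) updated symbols by gene number: 28898 probe sets named 1 gene, 551 several and 15588 none. All 8 member genes matched RefSeq promoters. Each comparison was fitted with limma 3.58.1 in R 4.3.3 (lmFit, eBayes, two-sided) over 45037 probe sets, with Benjamini-Hochberg adjustment and calls at 0.05. Comparisons with OTX015-treated tumours, and of untreated tumours with cultures, used quantile normalization of the fitted arrays. The fit was tested on simulated data. Alternatives were other scalings, filters, variance models, all groups in 1 fit, array weights, a replicate block and fits without 1 array in turn. Every array was left out in turn where 2 groups were compared. In the test of tumours minus cultures only cultures were left out (8 fits). In that of OTX015 minus guadecitabine only tumours of the guadecitabine experiment were (11 fits). Fits without 3 arrays of low spread, with a nuclear-retained RNA covariate and with other control tumours were chosen after seeing the data.

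All member probe sets were named. Each list could name up to 4 genes with the smallest adjusted p among those called in cultures and up to 2 per tumour comparison, and Hexim1 and Brd2 the 5 genes most like each. The 5 genes most like Ccnt2 were chosen after its values had been seen. The members and lists were chosen with earlier results of these data known. 1 gene of this group is not reported here.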

Additional observations from a re-analysis of the deposited data

Results flagged for a closer look

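The test of the difference between OTX015's effect in tumours and in cultures flagged 8 probe sets: Hexim1 1425937_PM_a_at (-2.31) and 1419359_PM_at (-2.58), Brd2 (-2.02), Brd3 1450902_PM_at (-0.85) and 1460328_PM_at (-1.09), Ccnt1 1456477_PM_at (-0.60), Cdk9 1457240_PM_at (-0.57) and Brdt 1450178_PM_at (0.51), the last 2 on signals below background. Hexim1 1419359_PM_at lay above background in OTX015-treated cultures only among the 4 groups of this test. The test of OTX015's effect minus guadecitabine's in tumours flagged Brd3 1436960_PM_at (0.52), Brdt 1450178_PM_at (0.24) and Ccnt1 1456477_PM_at (0.67).

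In 3 of 70 sets of deposited values, 1 array lay far from the others of its group by Dixon's criterion, which chance meets in about 5% of sets. They were Hexim1 1419359_PM_at in OTX015-treated tumour replicate 4 (4.62), Cdk9 1417269_PM_at in OTX015-treated culture replicate 1 (8.53), and Brdt 1435502_PM_a_at in untreated tumour replicate 1 of the guadecitabine experiment (2.76). Untreated tumours of the OTX015 experiment were not among the sets, and quantile normalized values were not checked this way. On those values OTX015-treated tumour replicate 4 was also the highest of its group for Brd2 (8.47) and Hexim1 1425937_PM_a_at (7.72). That array was 1 of the 3 arrays of lowest spread on the deposited values. On the deposited values the highest OTX015-treated tumour lay at 8.10 for Brd2 and 7.28 for this Hexim1 probe set.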

How the results depend on the processing

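The rises of Hexim1, Brd2, Ccnt1 and Brd3 probe sets 1450902_PM_at and 1460328_PM_at in OTX015-treated cultures kept their direction under every alternative run. Their calls held under all but the nuclear-retained RNA covariate, under which only those of Hexim1 passed. That covariate separates treated from untreated cultures completely, so calls kept or lost under it do not tell these genes apart. The differences of Hexim1, Brd2 and these 2 Brd3 probe sets between tumours and cultures kept direction and call under all alternatives run for them. These left out single cultures in turn but no single tumour. That of Ccnt1 1456477_PM_at did not pass after centring on the median (-0.54; limma adjusted p = 0.131). The cause of the changes below was not tested.

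In cultures the covariate left 205 probe sets called in all and 2 members, and turned Cdk9 1457240_PM_at to -0.10 and Ccnt2 to -1.31. Without 1 culture in turn, Ccnt2 lay between -0.10 and 0.090.

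For OTX015 in tumours, the deposited values called 26784 probe sets and 8 members. They turned Brd2 to -0.14, Brd3 1436960_PM_at to -0.033, Brdt 1435502_PM_a_at to -0.0023, Hexim1 1425937_PM_a_at to -0.11, and Ccnt1 1456477_PM_at to -0.12 and 1419313_PM_at to -0.080. Without dim probe sets 1695 were called and 0 members. The mean of its probe sets turned Brd3 to -0.031.

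For guadecitabine, all 6 groups in 1 fit called 1282 probe sets, against 0, and no member. Quantile values turned Ccnt1 1419313_PM_at to 0.016. The covariate turned Brd2 to 0.018, Brd3 1460328_PM_at to -0.14, Cdk9 1457240_PM_at to 0.0011 and Ccnt1 1419313_PM_at to 0.0073. Without 1 tumour in turn, 0 to 1 probe sets were called, and Brd3 1460328_PM_at lay between -0.084 and 0.14, Brd2 between -0.13 and 0.00012, and Cdk9 1457240_PM_at between -0.20 and 0.0036.

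For the tumour effect minus the culture effect of OTX015, the deposited values called 18626 probe sets and turned Brdt 1435502_PM_a_at to -0.047.

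For OTX015 minus guadecitabine, the deposited values called 13676 probe sets and turned Brd2 to -0.069, Brdt 1435502_PM_a_at to -0.070, Cdk9 1417269_PM_at to -0.024 and Ccnt1 1419313_PM_at to -0.0089. Centring on the median called 1 member and turned Brd3 1450902_PM_at to 0.055. Array weights called 3551 probe sets and turned Brd3 1450902_PM_at to 0.0052. Without dim probe sets 651 were called and 1 member, and without the 3 arrays of lowest spread 1 member. The mean of its probe sets turned Cdk9 to -0.019. Without 1 array of the guadecitabine experiment in turn, 1161 to 3749 probe sets and 0 to 3 members were called, Brd3 1450902_PM_at lay between -0.076 and 0.063 and Hexim1 1425937_PM_a_at between -0.23 and 0.045.

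For untreated tumours minus cultures, centring on the median gave Brd2 -0.13, Brd3 1450902_PM_at -0.16, Hexim1 1425937_PM_a_at -0.20 and 1419359_PM_at -0.074, and Ccnt1 1419313_PM_at -0.22. The deposited values gave Brd2 -0.039, Brd3 1450902_PM_at -0.062, Hexim1 1425937_PM_a_at -0.11, Ccnt1 1419313_PM_at -0.12 and Brdt 1435502_PM_a_at 0.074. Hexim1 1419359_PM_at was -0.069 with array weights and -0.041 without the 3 arrays of lowest spread. All 6 groups in 1 fit called 3 members. Without dim probe sets 10420 probe sets and 3 members were called. Control tumours of the guadecitabine experiment gave Brd3 1436960_PM_at 0.42, Hexim1 1419359_PM_at -0.14, Cdk9 1417269_PM_at 0.20 and 1457240_PM_at 0.021, Ccnt1 1456477_PM_at 0.76 and Ccnt2 2.57. Without 1 array in turn, 12646 to 16647 probe sets and 4 to 6 members were called, Brdt 1435502_PM_a_at lay between -0.030 and 0.018, Hexim1 1419359_PM_at between -0.057 and 0.083 and Cdk9 1417269_PM_at between -0.035 and 0.00046.

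Whether replicate numbers pair the samples was left undecided. Deviations of same-numbered samples correlated over 0.1 in 1 of 4 pairs of cultures. Among pairs of tumours, 4 of 10 did so in the OTX015 experiment and 0 of 5 in the guadecitabine experiment. Of pairs of control tumours and cultures 1 of 4 did. The highest r was 0.45, in the OTX015 tumours, and samples with different numbers were not compared. With a replicate block, 2 members were called for OTX015 in tumours and 3 for untreated tumours minus cultures, and 1210 probe sets for OTX015 minus guadecitabine. The block turned Brd3 1460328_PM_at to -0.021 with guadecitabine and to 0.049 in untreated tumours minus cultures. It turned Brd3 1450902_PM_at to 0.063 and Hexim1 1425937_PM_a_at to 0.041 in OTX015 minus guadecitabine, and Hexim1 1419359_PM_at to -0.0014 in untreated tumours minus cultures.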
